A study of Mus musculus with 3 samples.

Results

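Pericyte-gated cells were segmented cells of a mouse embryo section at E15.5, a stage counted in embryonic days, that carried RNA of the pericyte genes Rgs5, Pdgfrb, Kcnj8, Abcc9 and Foxs1, with little Myh11 and few endothelial transcripts. A cell of the section was kept when it held at least 10 counts of the 296 panel genes. A kept cell was a member when its counts of the 5 pericyte genes summed to 4 or more with at least 2 of the 5 genes nonzero, when it held at least 1 count of Rgs5 and fewer than 2 of Myh11, and when Pecam1, Cdh5, Kdr, Emcn and Cldn5 together gave fewer than 2 counts. This rule took 959 of the 195915 kept E15.5 cells, 0.489% (95% Clopper-Pearson interval 0.459% to 0.521%). The members were chosen by their measured counts of these 11 genes, so the levels of those genes describe the rule and support nothing.

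The series holds 3 sagittal sections of whole wild-type embryos: 2 from different embryos at E9.5 and 1 from an embryo at E15.5. RNA was read in place by MERFISH, in which each gene is recognised by a barcode of fluorescent spots over rounds of imaging, on the MERSCOPE instrument. No embryo was treated and no allele was altered in any section. Because E15.5 is represented by 1 section, no comparison has a replicate, no p-value is given, and cells are not counted as replicates. Every interval is an exact 95% interval. Those of levels and ratios cover counting error alone. Those of shares and median distances take the cells of the section as independent draws, which neighbouring cells may not be. No interval measures variation between embryos.

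Pericytes are mural cells that lie on the outer face of capillaries and share a basement membrane with the endothelium. Endothelial cells recruit them with the growth factor PDGF-B, which acts on the receptor Pdgfrb, and Notch signals from the vessel wall act on them through target genes such as Heyl. They are known to cover capillaries of the central nervous system densely and to help form the blood-brain barrier, while the smooth muscle cells of larger vessels carry contractile proteins such as Myh11 and Acta2.

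The section held 219525 segmented cells and 21309070 panel counts, with a median of 84 counts in kept cells. Members were richer in counts, with a median of 160, and larger, with a median volume, in the deposited unit, of 793 against 627 for other kept cells outside the endothelial gate. Blank codes, which belong to no gene, made up 0.305% of all counts. No cell identifier was shared between the sections (0 shared). No doublet caller was run, and a count that segmentation took from a neighbouring cell cannot be told apart from the cell's own. For this reason the level of each gene is set beside its level in the 20 nearest other cells of each member, called the surroundings, from which members, endothelial-gated cells and Myh11-positive mural cells were left out.

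Rgs5, an activator of GTP hydrolysis by G proteins and a widely used pericyte marker, gave the most counts of the gate, with a mean of 3.0 and a maximum of 22 in a cell. Kcnj8, the pore subunit of an ATP-sensitive potassium channel, averaged 1.73 counts and was nonzero in 71.6% of members. Abcc9, the sulfonylurea receptor that regulates this channel, averaged 0.443 counts and was nonzero in 33.5%. Pdgfrb averaged 0.944 counts and was nonzero in 55.1%, and the forkhead transcription factor Foxs1 averaged 0.198 and was nonzero in 15.8%. Most members therefore rested on few of the 5 genes: 406 had 2 of them nonzero, 395 had 3, 140 had 4 and 18 had all 5. At the edge of the rule, 347 members had a gene sum of exactly 4 and a median distance to the nearest endothelial-gated centre of 16.0 µm, and 543 cells just outside it had a sum of 3 and a distance of 18.5 µm. Vtn, a gene the gate did not use, stood at 17.2 counts per 10000 panel counts just inside and 9.37 just outside, and Heyl at 55.8 and 37.1.

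Expressed per 10000 panel counts, the scale used for every level below, Rgs5 reached 168 in members and 11.1 in all other kept cells. Kcnj8 stood at 96.5 against 9.51, Pdgfrb at 52.8 against 8.34, Abcc9 at 24.8 against 4.62 and Foxs1 at 11.1 against 2.08. Kcnj8 and Abcc9 are neighbours on mouse chromosome 6 with 0 protein-coding genes between them, and Rgs5 lies beside its relative Rgs4 on chromosome 1 in the same way, in the RefSeq annotation of GRCm38.p6. The 250 bases before the annotated start of 3 of the 5 genes are shown because these genes define the members. They are RefSeq promoter sequences of GRCm38.p6, written 5′ to 3′ in the direction of the gene, and capitals mark TAAACA, a core motif of forkhead factors, the class to which Foxs1 and the Foxf1 and Foxd1 described below belong.
Rgs5, chr1:169655251-169655500, plus strand: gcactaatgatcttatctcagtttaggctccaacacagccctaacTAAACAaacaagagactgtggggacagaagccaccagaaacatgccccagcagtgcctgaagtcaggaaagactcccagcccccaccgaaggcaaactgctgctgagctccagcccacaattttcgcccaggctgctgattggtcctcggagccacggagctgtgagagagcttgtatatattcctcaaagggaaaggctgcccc
Kcnj8, chr6:142571615-142571864, minus strand: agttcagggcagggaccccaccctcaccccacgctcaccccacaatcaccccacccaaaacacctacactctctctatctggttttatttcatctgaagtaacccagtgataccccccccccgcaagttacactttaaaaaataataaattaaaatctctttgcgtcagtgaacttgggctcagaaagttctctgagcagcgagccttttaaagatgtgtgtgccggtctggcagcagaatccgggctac
Abcc9, chr6:142702275-142702524, minus strand: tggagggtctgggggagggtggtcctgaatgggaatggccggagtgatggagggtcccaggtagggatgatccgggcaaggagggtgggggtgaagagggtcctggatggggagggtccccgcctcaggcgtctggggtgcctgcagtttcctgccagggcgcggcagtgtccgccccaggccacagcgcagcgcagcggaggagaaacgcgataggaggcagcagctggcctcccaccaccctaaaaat
Searched on both strands, TAAACA occurs 1 time in the Rgs5 window and 0 times in those of Kcnj8 and Abcc9. It occurs in 12.0% of 32851 windows of this length, so the match describes these letters and no binding.

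The same gate was applied to the younger embryos for comparison. It took 2 of 830 kept cells (0.241%, 0.0292% to 0.868%) in E9.5 section 1 and 111 of 6334 (1.75%, 1.44% to 2.11%) in E9.5 section 2. The share at E15.5 lay between those of the 2 E9.5 sections, so the stages could not be ordered. Both the pericyte and the endothelial gate need a fixed number of counts. Kept cells held a median of 61 counts in E9.5 section 1, 128 in E9.5 section 2 and 84 at E15.5. The shares had the same order as these medians, and the part of depth in them was not tested. Per 100 endothelial-gated cells, the members numbered 16.7, 35.1 and 8.19 in E9.5 section 1, E9.5 section 2 and the E15.5 section, on 12, 316 and 11711 endothelial-gated cells. Over all kept cells, Rgs5 stood at 3.94, 12.4 and 12.4 and Pdgfrb at 29.2, 38.3 and 8.70 in these sections. Pdgfrb was thus higher in both E9.5 sections than at E15.5, while Rgs5 was level with E15.5 in section 2 and lower in section 1.

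The members were unevenly spread. Of 142 squares with sides of 500 µm that held at least 200 kept cells, 47 held no member, and the 2 fullest squares held 26.1% of all members. Members with at least 10 members within 100 µm, counting themselves, were joined into clumps, a step chosen after the positions were seen. This gave 9 clumps with 475 members, and the other 484 members were called scattered. Clumps whose surroundings shared 1 of their 2 leading genes and whose centres lay within 500 µm were joined, which left 5 areas. The scattered members were split by their surroundings. Neural surroundings had at least 10 of 20 cells with 6 or more counts of Stmn2, Tubb2b, Fabp7 and Scn3a, non-neural ones at most 1, and mixed ones lay between. Neural surroundings were split again at a Hand2 level of 100.

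**Figure D1:**
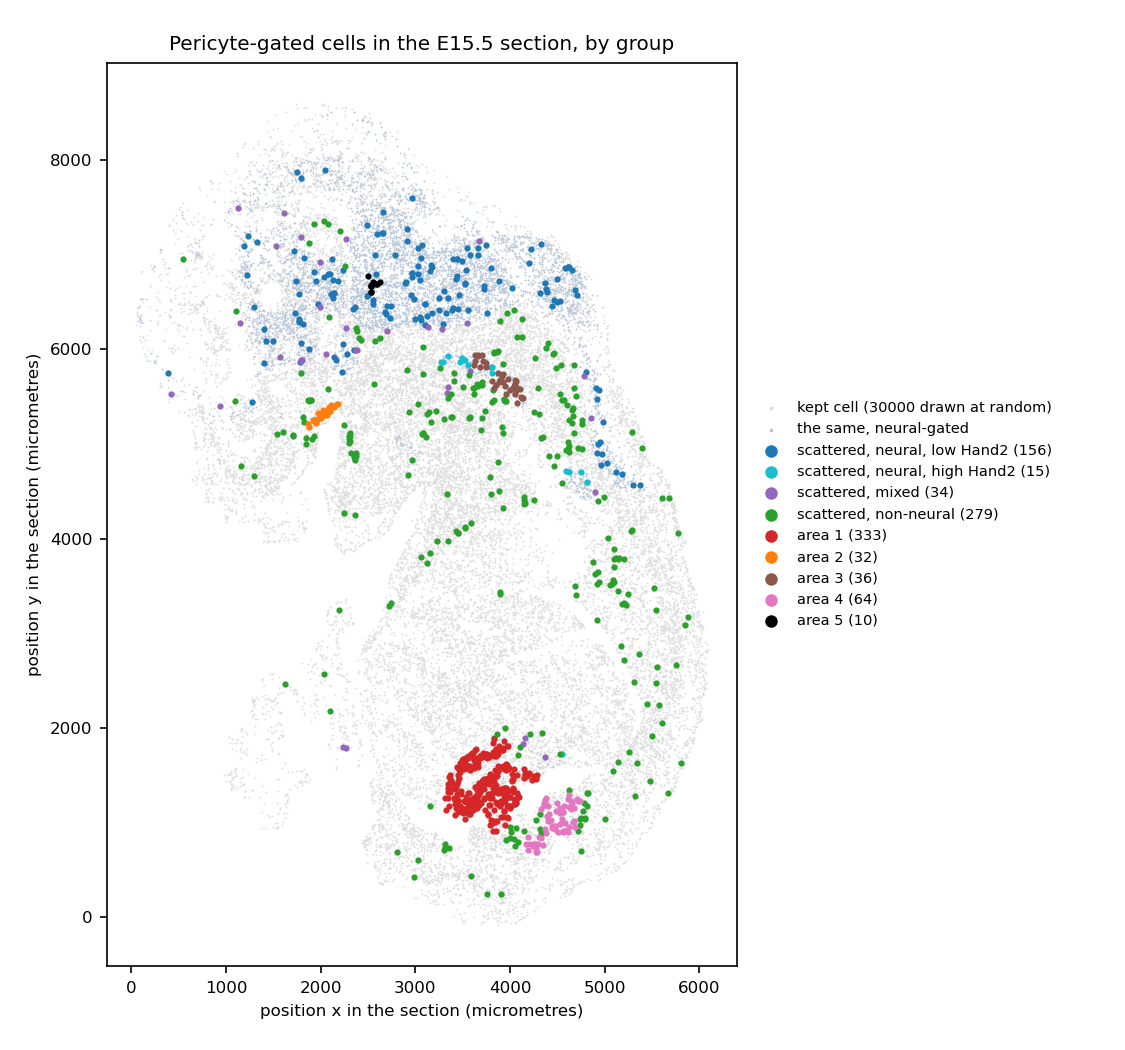
Positions of the 959 pericyte-gated cells in the E15.5 section, in micrometres on both axes, coloured by area or by the surroundings of scattered members, with the number of members of each in brackets. Grey points are kept cells drawn at random and bluish ones are those that pass the neural gate. The red cells of area 1 form the densest patch, with 333 members, and scattered members number 484.

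Area 1 held 333 members, 34.7% of all, centred at x 3754 and y 1353 µm. Its surroundings were led by Gata4, Foxf1, Spint2 and Hand2, relative to all other kept cells. Kcnj8 in these surroundings was itself 8.09 times, and Abcc9 3.51 times, the level of all other kept cells, so the channel genes that qualified these members were shared with the cells around them. The members carried 2.63 counts of Kcnj8 and 0.0691 of Foxs1 per cell. Outside the gate, 0 of 223 panel genes tested (0%) were at least 2-fold higher in the members than in their surroundings with an interval above 1, and 19 (8.52%) were at least 2-fold lower. The highest of these ratios was that of Heyl, at 1.95 (1.69 to 2.23), and Vtn stood at 5.25 in the members and 20.6 around them. Among the lowest was Acta2, the smooth muscle actin, at 10.5 against 57.5. The rule held Myh11 under 2 counts in members, while cells around them with more Myh11 were left out only where they were mural-gated. The part of this limit in the Acta2 difference was not tested.

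Area 2 held 32 members at x 2053 and y 5323 µm, in surroundings led by the visceral and craniofacial mesenchyme factors Foxf1 and Prrx1. Pdgfrb qualified these cells, with 2.38 counts per member, and Pdgfrb in the surroundings was 3.90 times the level of other kept cells. Kcnj8 averaged 0.125 and Abcc9 0.0312 counts per member. Prrx1 stood at 69.6 in the members and 71.5 around them, and Sfrp2, a secreted Wnt modulator, at 399 and 311.

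Area 3 held 36 members in 2 clumps near x 3927 and y 5661 µm, of which 31 had neural surroundings. Hand2, a transcription factor of autonomic neurons among other tissues, stood at 455 in the members and 461 around them. Rgs4, another regulator of G protein signalling, stood at 528 and 470.0, and Rgs5 in the surroundings was 4.49 times the level of other kept cells. The 15 scattered members in neural surroundings rich in Hand2 had the same pattern, with Hand2 at 447 and 550.0 and Rgs4 at 764 and 489.5.

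Area 4 held 64 members in 4 clumps around x 4476 and y 1000 µm, in surroundings whose leading genes included Wnt4 and Heyl. Foxd1, a forkhead factor of stromal progenitors in several organs, stood at 57.8 (45.3 to 72.5) in the members and 33.9 in the surroundings. Gucy1a1, a subunit of the nitric oxide receptor guanylate cyclase, was 2.51 times (2.11 to 2.98) as high in the members as around them. Heyl went the other way, at 73.4 (59.3 to 89.8) in the members and 100.1 around them, and Vtn gave 0 counts in the members. Rgs5 in these surroundings was 2.62 times the level of other kept cells. Area 5 held 10 members, all in neural surroundings, with Vtn at 154 in the members against 8.45 around them.

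In areas 1, 2 and 3 the label of pericyte thus went against the surroundings, in which Kcnj8, Pdgfrb and Rgs5, respectively, stood 8.09, 3.90 and 4.49 times above other kept cells, and pericyte-gated is used as the name throughout. Rgs5 was above other kept cells in the surroundings of every group, from 1.73 times in scattered non-neural ones to 4.49 times in area 3. The levels of these genes in the members themselves were set by the rule and are shown as a description.

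**Figure D2:**
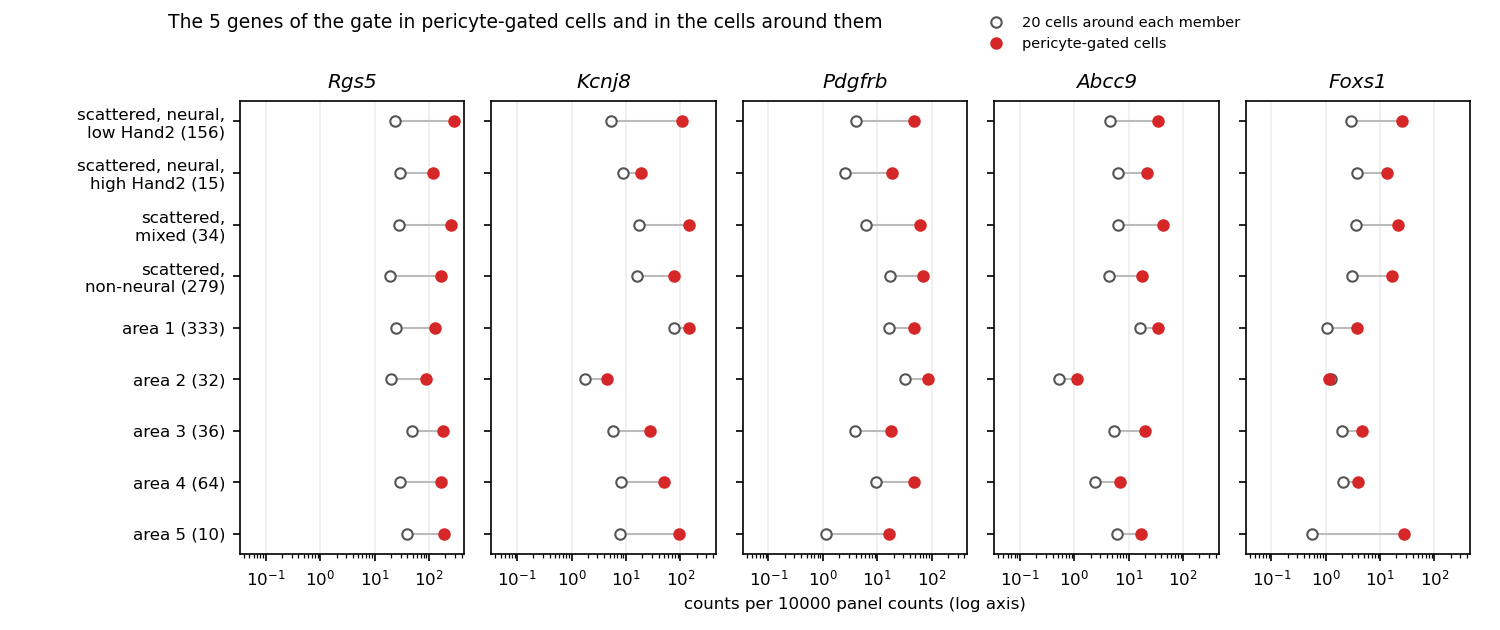
Level of each gene of the gate (counts per 10000 panel counts, log axis) in pericyte-gated cells (red) and in the cells around them (open), by group, with the number of members in brackets. The gap between the points for Kcnj8 is wide in scattered members of neural surroundings low in Hand2, at 107 against 5.43, and narrow in area 1, at 144 against 76.9.

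Pericytes sit on capillaries, and the distance to endothelium was not used to choose the members. Endothelial-gated cells were kept cells with at least 3 counts of the 5 endothelial genes, of which at least 2 were nonzero; there were 11711 (5.98%). Because members could hold at most 1 such count, no member was itself endothelial-gated. Member centres lay a median of 16.2 µm (15.01 to 17.01) from the nearest endothelial-gated centre, and 60.3% (57.1% to 63.4%) lay within 20 µm. All other kept cells outside the endothelial gate had a median of 32.1 µm and 28.4% within 20 µm. Other kept cells with at least the members' median of 160 counts had a median of 27.5 µm and 32.8%. The 255 Myh11-positive mural-gated cells, which met the same rule except for holding at least 2 counts of Myh11, lay at 20.2 µm (16.3 to 23.3).

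Much of this closeness was shared with the place. The surroundings of members had a median of 19.5 µm, and 597 of 959 members (62.3%, 59.1% to 65.3%) were closer to an endothelial-gated centre than the median of their own 20 surrounding cells. The scattered members had a median of 13.8 µm, and 336 of 484 (69.4%) were closer than their surroundings. Scattered members in neural surroundings low in Hand2 had a median of 12.5 µm (10.4 to 14.3), with 119 of 156 (76.3%, 68.8% to 82.7%) closer. In non-neural surroundings the median was 13.7 µm and 180 of 279 (64.5%, 58.6% to 70.1%) were closer. Area 1 had a median of 19.3 µm (16.95 to 21.1) and 178 of 333 closer (53.5%, 47.9% to 58.9%), an interval that includes an even split. Area 4 had a median of 13.2 µm, but its surroundings were as near to endothelium, at 14.5 µm. Areas 2, 3 and 5 and the scattered members in surroundings rich in Hand2 had larger medians, at 35.5, 27.0, 28.9 and 35.4 µm. The members closer than their surroundings were 56.25% (37.7% to 73.6%) in area 2 and 66.7% (49.0% to 81.4%) in area 3. Of the 15 scattered members rich in Hand2, 73.3% (44.9% to 92.2%) were closer. All of these intervals include an even split. In area 5 the interval of the members, 10.6 to 43.6 µm, included the 25.4 µm of the surroundings, and 5 of the 10 members were closer.

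**Figure D3:**
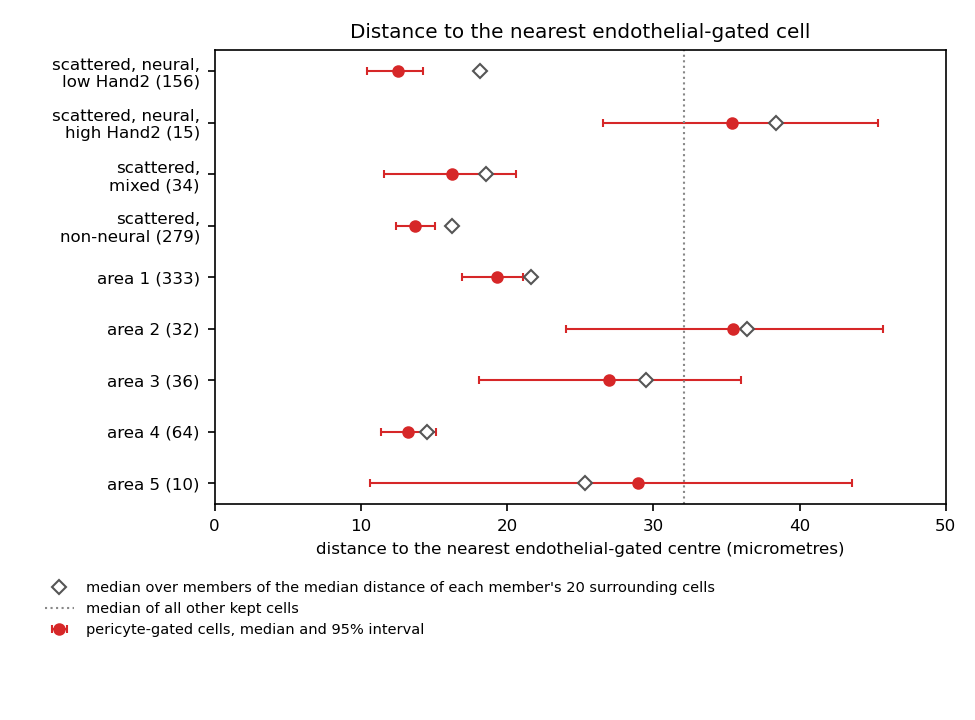
Distance in micrometres to the nearest endothelial-gated centre by group. Red points are medians of the members with 95% order-statistic intervals, diamonds are the medians for their surroundings and the dotted line is the median of all other kept cells, 32.1 µm. The red point lies left of the diamond by the widest margin in scattered members of neural surroundings low in Hand2, at 12.5 against 18.2 µm.

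Seen from the endothelium, 9.0% of endothelial-gated cells had a member within 20 µm. The share was 13.8% (12.1% to 15.7%) in neural and 8.30% (7.74% to 8.88%) in non-neural surroundings, and within 50 µm it was 37.0% and 27.2%. There were 14.4 members per 100 endothelial-gated cells in neural surroundings and 7.35 in non-neural ones. The endothelial-gated cells themselves numbered 1472 beside 41638 kept cells in neural surroundings and 9222 beside 139000 in non-neural ones. As a share of all kept cells the members were 0.509% (0.443% to 0.582%) and 0.488% (0.452% to 0.526%). Counting all members, these shares were alike and the ratios to endothelial cells were not. Clumped members are included: 171 of the 212 neural members were scattered, and 279 of the 678 non-neural ones. The neural members also include 31 of area 3 and the 15 scattered ones rich in Hand2. Area 1 alone held 333 members, 0 of them in neural surroundings, so these shares do not compare scattered members. None of the Myh11-positive mural-gated cells lay in neural surroundings (0, against 173 in non-neural and 82 in mixed ones). The gate needs 4 counts, so fewer pericytes and less RNA per pericyte cannot be told apart in these shares.

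Over all members against all other kept cells, 285 genes outside the gate had at least 100 counts in both groups together. Of these, 19 (6.67%) were at least 2-fold higher in members with an interval above 1, and 12 (4.21%) were at least 2-fold lower. Scaled by cell volume in place of panel counts the numbers were 32 and 4, and the median ratio of all 285 genes shifted by 0.45 on the log2 scale. With the mean blank code subtracted they were 24 and 33. Among scattered members alone, 17 genes (5.96%) were higher and 13 (4.56%) lower. Cells of all tissues form the comparison and clumped members share their place, so the ratio among scattered members is given beside each.

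Several genes known from vessel walls were higher than in the rest in both sets. Heyl, a transcriptional repressor activated by Notch in mural cells, was 4.53 times (4.30 to 4.78) the level of the rest in all members and 6.89 times in scattered ones. Gucy1a1 was at 3.75 and 3.52 times. Epas1, the hypoxia-inducible factor HIF-2α, was at 2.82 and 4.28 times, and Ednra, the receptor of endothelin-1, at 2.36 and 3.25 times. Vtn, which encodes the adhesive plasma and matrix protein vitronectin, was at 2.52 (2.30 to 2.76) and 4.78 times. Mmp9, a gelatinase that cleaves basement membrane collagen, was at 2.62 and 4.67 times. The surface glycoprotein Cd248 (endosialin) was at 2.37 and 2.12 times.

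Rgs4 and Sparcl1, a matricellular protein gene, also passed the limit in both sets, with levels that varied by place. Rgs4 was at 2.40 and 2.94 times the rest, but 287 of its scattered counts came from the 15 members rich in Hand2. In scattered members of non-neural surroundings its level was 15.1, below the 28.9 of the rest. Sparcl1 was at 2.85 and 2.05 times, and it stood at 240.4 in area 1 and 189 in the surroundings of that area.

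A second set of genes was high in all members and lost its place among the scattered ones. Foxf1 was 4.15 times the rest in all members and 1.70 times in scattered ones, and Hand2 3.66 and 1.52 times. Npr3, the clearance receptor of natriuretic peptides, was at 2.62 and 1.32 times, and Ltbp4, which binds latent TGF-beta, at 2.53 and 1.35 times. Nr2f2, a nuclear receptor of veins and mesenchyme, was at 2.20 and 1.74 times. Foxf1, Sparcl1, Hand2, Npr3 and Ltbp4 led the members of area 1, at 7.79, 5.21, 5.17, 4.97 and 4.81 times the rest.

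The lowest genes are mostly known from other cell types. Car2, a carbonic anhydrase of red cells and other types, was 0.0942 times the rest, Cytl1, a secreted cartilage protein, 0.184 times, and the arterial connexin Gja5 0.313 times. The cell-cycle inhibitor Cdkn1a was at 0.338 times. Tmem255a, Col15a1, Cthrc1, Ctsh and Rgcc were also among the 10 lowest, between 0.381 and 0.486 times.

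Lists of pathway and cell type genes were counted by the same rule, beside a median ratio of 0.909 over all 285 genes. Of the 5 pericyte genes outside the gate, 3 were higher in members (Heyl, Vtn and the mitochondrial complex subunit Ndufa4l2, at 2.05 times) and 0 lower, with a median of 2.05. The others were Higd1b, a hypoxia-inducible mitochondrial protein gene, at 1.24 times (0.865 to 1.73), and Zic1 at 0.597 times. Of 4 genes of mural Notch signalling, Heyl was higher, while the receptor Notch1 stood at 1.29, the ligand Jag1 at 1.90 and the ligand Dll4 at 0.720 times. Of 4 hypoxia genes, Epas1 and Ndufa4l2 were higher and the glucose transporter Slc2a1 stood at 0.767 times. The BMP receptor Acvrl1 and its target Tmem100 stood at 1.503 and 1.508 times, both short of the 2-fold limit, and endothelin-1 (Edn1) at 0.759 times. Of 3 basement membrane collagens, Col4a1 stood at 1.95 times (2.46 in scattered members), Col18a1 at 0.722 and Col15a1 was lower at 0.397. Of 5 elastic fibre genes 1, Ltbp4, was higher, and Eln (elastin) stood at 1.63 times.

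Marker lists of other cell types gave 0 genes higher in members: 0 of 6 for macrophages, 0 of 4 for mesenchyme, 0 of 5 for neurons, 0 of 8 for brain endothelium, 0 of 4 for liver sinusoids and 0 of 3 for glia. With 6.67% of all genes higher, counts of 0 in lists this short say nothing about the members. Their median ratios were 0.879, 1.22, 0.673, 0.859, 0.647 and 0.865. Summed levels did not reach 0 in any list: macrophage markers stood at 30.0 in members and 34.3 in the rest, and neuronal markers at 531 and 632. Of 8 proliferation genes 0 were higher or lower, with a median of 1.03, and of 3 chemokine genes 0, with a median of 0.924.

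The clearest set of genes appeared when scattered members in neural surroundings low in Hand2 were set beside their own surroundings. Of 195 genes tested, 16 (8.21%) were at least 2-fold higher and 9 (4.62%) lower. Mmp9 was 16.4 times (12.6 to 21.4) and Vtn 14.3 times (12.1 to 16.9) the surroundings. Cd248 followed at 7.58 times (5.71 to 9.98), Ednra at 7.07 times (5.19 to 9.54), and Bgn, the proteoglycan biglycan, at 6.86 times (5.18 to 9.03). Epas1 was at 5.55, Heyl at 5.21 and Col4a1 at 3.44 times. Vtn was nonzero in 55.1% of these members, in 7.06% of their surroundings, and in 39.8% of the 558 endothelial-gated cells within 50 µm of them, at median counts of 123, 98 and 191 per cell.

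Endothelial-gated cells nearby carried several of these genes too, and the comparison with them splits the set. Vtn stood at 123 (109 to 138) in the members and 77.7 in nearby endothelial-gated cells, Mmp9 at 53.2 (44.2 to 63.5) and 18.6, and Pcdh18, a protocadherin gene, at 75.9 (65.0 to 88.0) and 31.9. Heyl stood at 65.8 and 45.2, Ednra at 28.8 and 15.4, and Cd248 at 34.9 and 20.6, all with the members' interval above the endothelial level. The order was the reverse for Epas1, at 112 and 153, for Col4a1, at 359 and 513, and for Notch4, an endothelial Notch receptor, at 18.3 and 26.3. Rgs5, a gate gene, stood at 292 and 169, so nearby endothelial-gated cells carried counts of a gene of the pericyte gate as well. How far each count belongs to the cell to which segmentation gave it was not tested.

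In non-neural surroundings, 6 of 260 genes (2.31%) were at least 2-fold higher in scattered members than around them and 6 (2.31%) lower. Ndufa4l2 was 3.51 times (2.31 to 5.23), Epas1 3.33 times (2.91 to 3.80), Heyl 3.29 times (3.03 to 3.56), Gucy1a1 2.48 times (2.25 to 2.73) and Rgs4 2.44 times (1.87 to 3.15) the surroundings. Procr, the endothelial protein C receptor gene, was at 2.26 times. Vtn stood at 11.6 (8.77 to 15.1) in these members and 10.6 around them, and Mmp9 at 6.01 (4.03 to 8.63) and 4.34. Among the lower genes were Cdkn1a at 0.244 times and the cytoskeletal gene Pdlim3 at 0.378 times. Heyl and Epas1 passed the 2-fold limit in both of these groups.

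**Figure D4:**
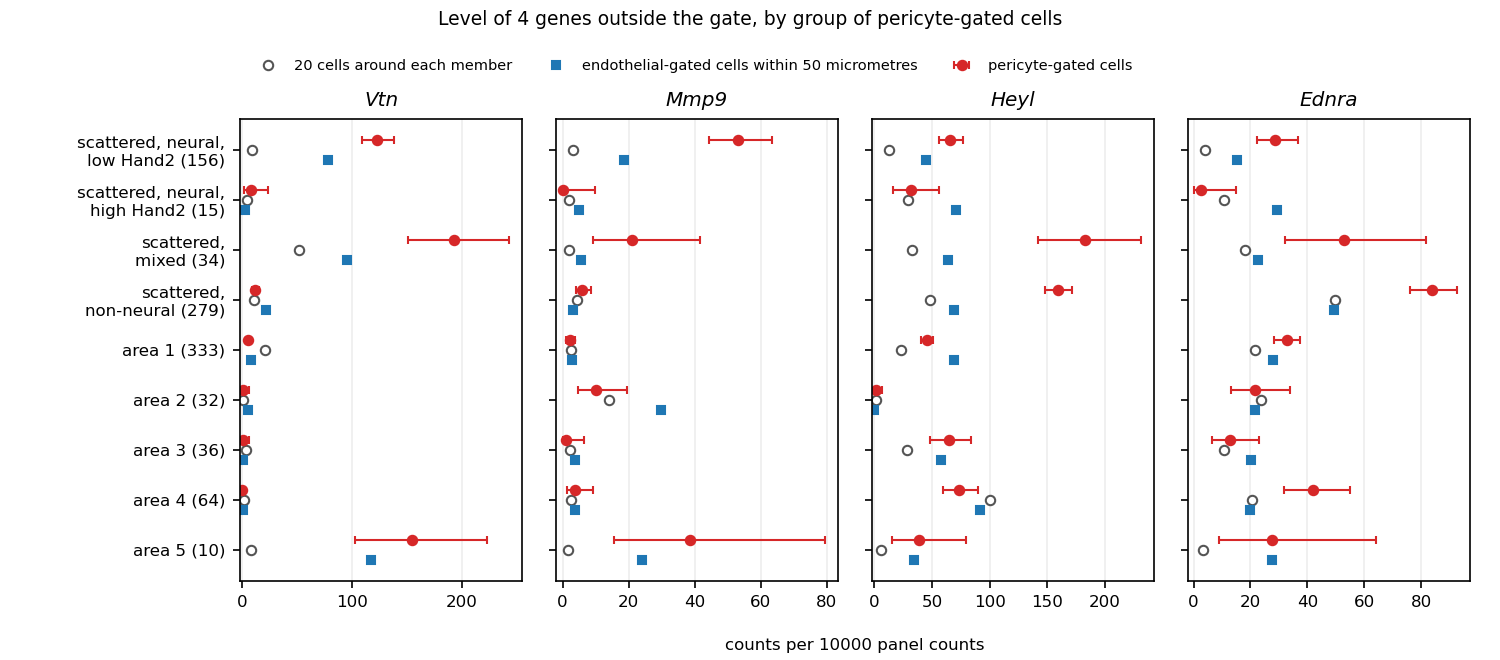
Level of Vtn, Mmp9, Heyl and Ednra (counts per 10000 panel counts) in pericyte-gated cells (red, with 95% Poisson intervals), their surroundings (open circles) and endothelial-gated cells within 50 µm (blue squares), by group with the number of members in brackets. Vtn is high in the scattered members of neural surroundings low in Hand2, at 123, in those of mixed surroundings, at 193, and in area 5, at 154. It is 11.6 or lower in the other groups.

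The members of neural and non-neural surroundings were next compared directly. Over all 212 and 678 such members, 175 genes were tested, of which 40 (22.9%) were higher and 73 (41.7%) lower in neural surroundings. A gene was set apart where the surroundings themselves differed by more in the same direction, which left 25 (14.3%) higher and 39 (22.3%) lower genes. Stmn2, Tubb2b and Fabp7 headed the 25, at 102, 57.2 and 35.5 times, but they belong to the genes that define neural surroundings, whose own ratios were 97.4, 43.3 and 34.4. Tbx20, Tox2, Lrp8 and Spock2 likewise followed the surroundings, at 21.0 against 17.3, 20.03 against 17.3, 13.3 against 10.2 and 8.31 against 5.02 times.

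The 5 neuronal markers summed to 1736 in neural and 198 in non-neural members. The 6 endothelial markers summed to 20.2 and 20.6. Of these 6, 5 are gate genes that together gave at most 1 count per member, so their sums describe the rule. Stmn2 stood at 962 in scattered members of neural surroundings low in Hand2 and at 1225 around them, and the part of these neuronal counts in the differences was not tested.

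Vtn and Mmp9 did not follow the surroundings. Vtn was 12.5 times (9.82 to 16.0) higher in neural members, while the surroundings' ratio was 0.579 and that of endothelial-gated cells 3.22. Mmp9 was 8.41 times (6.08 to 11.8) higher, against 0.701 and 4.55. Among scattered members the ratios were 9.20 (6.88 to 12.5) and 7.60 (5.04 to 11.8). The rise was not shared by all neural members. Vtn and Mmp9 stood at 123 and 53.2 in scattered members of neural surroundings low in Hand2, and at 154 and 38.5 in area 5. In the 15 scattered members rich in Hand2 they stood at 7.99 and 0, and in area 3 at 1.17 each. Of the 120 genes tested in scattered members, 35 (29.2%) were higher and 45 (37.5%) lower, and 18 (15%) and 20 (16.7%) remained after genes that the surroundings exceeded were set apart. The barrier lipid transporter Mfsd2a was also higher in scattered members, at 8.13 times against 3.61 in the surroundings and 15.8 in endothelial-gated cells.

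Genes of connective tissue were among those lower in neural surroundings. Among the 10 lowest were Prrx1, Gpc3, Lox, Foxf1, Col1a2, Fibin, Ltbp4, Eln and Dcn, from 0.0231 to 0.0872 times, with surroundings' ratios from 0.0635 to 0.156. These ratios take all 678 non-neural members, of which 279 were scattered. In scattered neural and non-neural members Foxf1 stood at 4.12 and 32.8, less of a difference than the 2.75 and 30.2 around them. Ltbp4 stood at 3.37 and 22.4, more of a difference than the 3.98 and 17.9 around them. All 5 elastic fibre genes (Eln, Fbln5, Fbln2, Lox and Ltbp4) and all 4 mesenchyme markers (Col1a2, Dcn, Prrx1 and Prrx2) were at least 2-fold lower, with medians of 0.0778 and 0.0749 beside 0.695 over all 175 genes, although in Prrx2 the surroundings differed by more. Among scattered members, elastin stood at 3.37 in neural and 69.9 in non-neural surroundings, and Cxcl12, a chemokine, at 5.24 and 66.1. Of 7 proliferation genes tested, 7 were lower in neural members, though in 5 of them the surroundings differed by more. Gucy1a1 was lower in scattered neural members at 0.408 times (0.329 to 0.501), against 0.584 in the surroundings. Heyl was 0.383 times and Ednra 0.299 times as high, less of a difference than in the surroundings, at 0.299 and 0.0970.

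**Figure D5:**
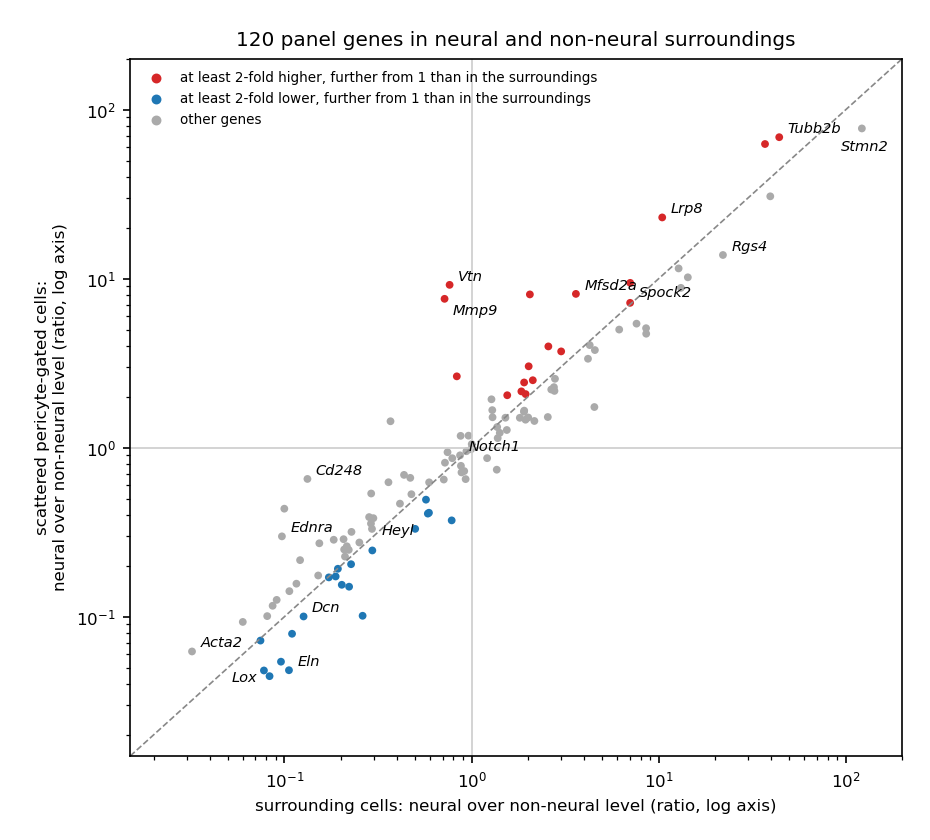
Ratio of the level in neural to non-neural surroundings for 120 panel genes, in the surroundings (x, log axis) and in scattered pericyte-gated cells (y, log axis). On the dashed line both ratios are equal. Red and blue genes differ at least 2-fold and lie further from 1 than the surroundings, and Vtn and Mmp9 stand at 9.20 and 7.60 where the surroundings stand at 0.764 and 0.718.

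Against the 255 Myh11-positive mural-gated cells, 200 genes were tested, of which 43 (21.5%) were higher and 8 (4%) lower in members, or 36 and 14 when scaled by cell volume. The rule used Myh11 to separate these groups, so its own difference is not a result. Its part in the differences of other contractile genes such as Acta2 was not tested. Acta2 stood at 14.5 in members and 281 in Myh11-positive cells, a ratio of 0.0515. Pdlim3 was at 0.172 times, Cd55, a complement-regulating surface protein gene, at 0.292, the transcription factor Gata4 at 0.321, Eln at 0.362 and Fibin at 0.429. Among the highest were Tbx20 at 13.9 times, Spock2 at 8.22, Vtn at 7.61 (4.92 to 12.4), the retinol transporter gene Stra6 at 6.72 and Mmp9 at 6.52 (3.47 to 13.8). Heyl was at 0.679 times. Because no Myh11-positive cell lay in neural surroundings, the comparison was repeated, after the values were seen, between the 678 members and 173 Myh11-positive cells in non-neural surroundings. Of 166 genes tested there, 23 (13.9%) were higher and 11 (6.63%) lower. Acta2 stood at 17.1 against 245 (ratio 0.0698) and stayed lower, as did Pdlim3, Cd55, Gata4 and Eln, while Fibin was at 0.538 times (0.454 to 0.639). Stra6 and Spock2 stayed higher, at 6.495 and 3.53 times. Of these 678 members 279 were scattered, and the part of the clumped members and their places in these ratios was not tested. Vtn did not pass, at 1.73 times (0.995 to 3.23), and Mmp9 at 2.28 times (1.03 to 5.93) and Tbx20 at 1.70 times (0.580 to 6.75) had too few counts to be tested.

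Within scattered members, those within 10 µm of an endothelial-gated centre (143 cells) were compared with those beyond 20 µm (156 cells), a comparison added after the distances were seen. Of 88 genes tested, 4 (4.55%) were at least 2-fold higher near endothelium and 8 (9.09%) lower. Mmp9 was 2.53 times (1.69 to 3.83), Vtn 2.01 times (1.57 to 2.58), the secreted neuronal guidance protein gene Reln 2.13 times and the surface glycoprotein gene Cd200 2.04 times as high near endothelium. The lower genes were Hand2 at 0.101 times, Ccnd1, Sfrp2, Foxf1, Fbln2, Rgs4 at 0.379 times, Maf and Gpc3. The 15 scattered members rich in Hand2, at a median of 35.4 µm, held 168 counts of Hand2, 287 of Rgs4 and 175 of Ccnd1. All cells beyond 20 µm held 201, 374 and 269. The part of these 15 members in the 3 differences was not tested. Heyl did not reach the limit, at 1.68 times (1.41 to 2.01). Split by surroundings, Gucy1a1 was 2.24 times (1.74 to 2.90) and Ednra 2.03 times (1.51 to 2.73) as high near endothelium in non-neural surroundings, and 0.995 and 0.953 times in neural surroundings low in Hand2. Vtn in the latter was at 1.23 times (0.923 to 1.66). Over all scattered members, the endothelial genes of the gate, on few counts, also differed between near and far cells, in both directions. Pecam1 was at 3.51 times (1.18 to 12.6) and Cdh5 at 3.07 times (1.46 to 6.92). Kdr was at 1.35, Cldn5 at 0.925 and Emcn at 0.338 times, with intervals that include 1. How far counts from nearby endothelial cells entered the ratios of Mmp9 and Vtn was not tested.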

How the data were processed

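The deposited tables hold raw counts of 296 panel genes and 19 blank codes per segmented cell; per the labels, hybridisation, imaging, segmentation and decoding were done by the authors on the Vizgen MERSCOPE platform. The authors' second table gives each cell's centre, volume and anisotropy; its header names no unit, and positions were read as micrometres. How cells were outlined and barcodes decoded in detail is not stated in those sources, and the submitters' processing notes name Scanpy and Seurat without versions or roles.

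Members, gene lists and alternatives were chosen with earlier results of these data known. Levels are summed counts per 10000 panel counts. Ratios carry exact conditional Poisson intervals, shares Clopper-Pearson intervals and medians order-statistic intervals, all at 95%. Those of ratios cover counting error alone, and those of shares and medians take cells as independent draws. A gene counted as higher or lower at a ratio of 2 or more, or its inverse, its interval lying wholly on that side of 1, among genes with 100 or more counts over both groups. Genes named were the 15 highest and 10 lowest against the rest, 10 and 10 by surroundings, 6 and 6 against Myh11-positive cells, and the members of lists with at least 3 panel genes; genes compared with their own surroundings, and the areas, were chosen after their values were seen. Clumps came from DBSCAN (100 µm, 10 members). The ratio test was tested on simulated data. Some genes that these rules name are not reported here. Python 3.11.15, numpy 2.4.6, scipy 1.17.1, pandas 2.3.3, scikit-learn 1.9.0 and matplotlib 3.10.9 were used.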

Additional observations from a re-analysis of the deposited data

How the results depend on the processing

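The share of kept cells that passed the gate was 0.535% with at least 20 counts per cell, 0.218% with a gene sum of 6 and 0.311% with no endothelial count. The median distance to endothelium was 17.03 µm with no endothelial count allowed in a member and 21.6 µm with the endothelial gate at 5 counts. Against the rest, the genes 2-fold lower numbered 27 with a gene sum of 6, 33 with the blank level subtracted and 4 per cell volume, and those higher numbered 32 per cell volume. Among genes not set apart, higher genes in neural surroundings numbered 12 with a gene sum of 6, 15 without members that had another centre within 8 µm, and 16 without the largest clump, and lower genes numbered 20 in scattered members. Against Myh11-positive cells, 27 genes were higher with a gene sum of 6, 23 with both groups in non-neural surroundings, and 14 lower per cell volume. Stricter rules leave fewer cells, and scaling by volume shifts all ratios; other causes were not tested. Leaving out clumps and matching the surroundings were chosen after the data were seen.

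Of the 15 highest genes against the rest, 116 of 120 values over 8 alternatives stayed past 2-fold, and 20 of 30 did without clumps. Among the highest and lowest genes of the comparisons with the rest, by neural surroundings and with Myh11-positive cells, 0 changed direction; other genes named were not run under the alternatives. No paired analysis was possible because E15.5 has 1 section. A replicate was not left out, since none remains. With the blank level subtracted, Tbx20 against Myh11-positive cells gave no ratio. At a median of 160 counts per member, genes of about 1 count per 10000 rest on few molecules.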

Other observations

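The 34 scattered members in mixed surroundings, had both Vtn and Heyl above their surroundings. Vtn stood at 193 (151 to 243) and Heyl at 182 (142 to 231) in them, against 52.0 and 32.7 in their surroundings, and Col4a1 at 717 against 258. Their median count was 101.5 per cell and their median distance to an endothelial-gated centre 16.2 µm.

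In area 1, some genes that led the surroundings were low in the members: Gata4 stood at 9.52 against 38.4 and the epithelial gene Spint2 at 22.3 against 102. Other leading genes were higher in the members. Foxf1 stood at 99.98 (92.2 to 108) against 66.8 and Hand2 at 104 against 94.4. Sparcl1 stood at 240.4 against 189 and Npr3 at 30.5 against 24.5. Acta2, not one of the leading genes, stood at 10.5 against 57.5, and the part of the Myh11 limit in this was not tested. In the members of area 3, Epas1 stood at 188 (160 to 219) against 116 around them and 114 in endothelial-gated cells within 50 µm.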
